A study of Homo sapiens with 12 samples.

Results

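The enzymes described here make, salvage and interconvert nucleotides, the building blocks of DNA and RNA. The set was chosen by symbol and holds 31 genes of the 28008 in each count table: 12 for purine synthesis and salvage, 2 that make the sugar donor PRPP, 5 for pyrimidine synthesis, 7 for deoxynucleotides and 5 nucleotide kinases. They were compared in QGP-1 and BON-1, established lines of pancreatic neuroendocrine tumors (pNETs), both carrying the vector tet-MUC1shRNA, in which doxycycline (DOX) switches on a hairpin against MUC1. These tet-MUC1shRNA cells of either line received 500 ng/mL DOX or, as vehicle, 0.1% DMSO for 7 days. RNA was sequenced as stranded mRNA libraries, 3 in each of 4 groups. Vehicle cells carry the same vector and were selected in puromycin like the DOX cells. No library of DOX-treated cells with a control hairpin was analysed here, so an effect of DOX itself and an effect of the hairpin cannot be told apart. Labels give 3 replicates a group and no culture dates, and the authors describe triplicate cultures. The p-values thus measure the spread between these cultures.

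Purine synthesis starts from PRPP, on which a chain of enzymes builds the ring of IMP. IMP then branches to AMP and GMP, and salvage enzymes rebuild the same products from free bases. Pyrimidine synthesis makes the ring before PRPP is added and ends in UTP and CTP. Ribonucleotide reductase turns ribonucleotides into deoxynucleotides, while a separate group of enzymes makes the thymidine nucleotides and removes dUTP, and kinases raise monophosphates to the triphosphates that polymerases use. Dividing cells draw heavily on these steps, and several of the genes are known to be expressed most in S phase.

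Totals per library were 38224144 to 50525926 counts for QGP-1 and 15981954 to 28484324 for BON-1. MUC1, the hairpin target, was at 5.65 to 7.19 CPM (counts scaled to library size) in QGP-1 vehicle libraries and at 0.705 to 1.04 with DOX, and at 15.6 to 20.7 against 1.48 to 3.97 in BON-1. Its log2 fold change was -2.91 in QGP-1 and -2.79 in BON-1. All 10 neuroendocrine markers passed the filter on low counts in both lines, with 0 lower and 3 higher with DOX in QGP-1 and 3 lower and 2 higher in BON-1. In BON-1 CHGA, the chromogranin A gene, fell most among them (log2 fold change -1.46), and of 5 epithelial markers KRT8 (0.62), KRT18 (0.58) and KRT19 (0.79) rose. The part of these markers in the changes below was not tested. Of 17 fibroblast, leukocyte and endothelial markers, 4 passed it in QGP-1 and 5 in BON-1, and PTPRC, which marks leukocytes, had 0 to 9 counts in each library. LYZ, which leukocytes also express, rose in QGP-1 from 9.97 to 11.6 CPM with vehicle to 15.6 to 19 with DOX, COL1A1 fell there, and LUM rose in BON-1 from 4.72 to 6.03 CPM to 10.2 to 11.1. CPM values here are scaled by TMM within each line. Calls are those of edgeR's quasi-likelihood test with an adjusted p below 0.05 and without a minimum fold.

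GMPS, CTPS1, TK1 and NME1 were the 4 members that fell with DOX in both lines, of which TK1 in QGP-1 lost its call under several other settings. GMPS turns XMP into GMP, CTPS1 turns UTP into CTP, TK1 is the cytosolic thymidine kinase of S phase, and NME1 is a nucleoside diphosphate kinase. In QGP-1, 14 of 30 tested members were lower and 2 were higher, whereas in BON-1 6 were lower and 2 were higher. The share lower in QGP-1 was 46.7% of the members beside 17.7% of all genes tested, and the share higher was 6.67% beside 17.3%. All genes tested include some far scarcer than any member, and they were not matched to the members by level. With vehicle in QGP-1, PECAM1 was at 0.668 CPM and DHODH, the scarcest tested member, at 7.36. In BON-1 the share lower was 20% beside 18.3% of all genes, close to the background under these settings. The share higher there was 6.67% beside 17%. With library size in place of TMM, 12 members were lower in BON-1, beside 3149 of 14625 genes. With no filter on low counts 10 were lower, beside 2937 of 20554. With at least 10 counts in every library 10 were lower, beside 2725 of 13524, so the closeness depended on the settings. The 4 genes lower in both lines were 13.3% of the members, beside 7.23% of the genes tested in both lines, and 0 members were higher in both, beside 6.88%. Each DOX library lay below each vehicle library for 46.7% of the members in QGP-1 and 36.7% in BON-1, beside 23.2% and 23.9% of all genes. Each lay above for 13.3% and 10% of the members, beside 23.5% and 22.4%. In bulk RNA, fewer cells with a transcript and less of it per cell cannot be told apart.

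The changes were small. In QGP-1 the median log2 fold change of the 30 members was -0.19 beside -0.01 for all genes tested, with 22 values below 0, and in BON-1 it was -0.14 beside -0.01, with 23 below 0. The sign was the same in both lines for 76.7% of the members and for 63.1% of the genes tested in both. Across the 30 members, Pearson's r between the log2 fold changes of the lines was 0.57 and Spearman's rho was 0.57, beside 0.31 and 0.34 over 13535 genes. These coefficients are across genes, which are not independent replicates. The remaining member, NME2, had 0 to 9 counts in each of the 12 libraries and was not tested.

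**Figure D1:**
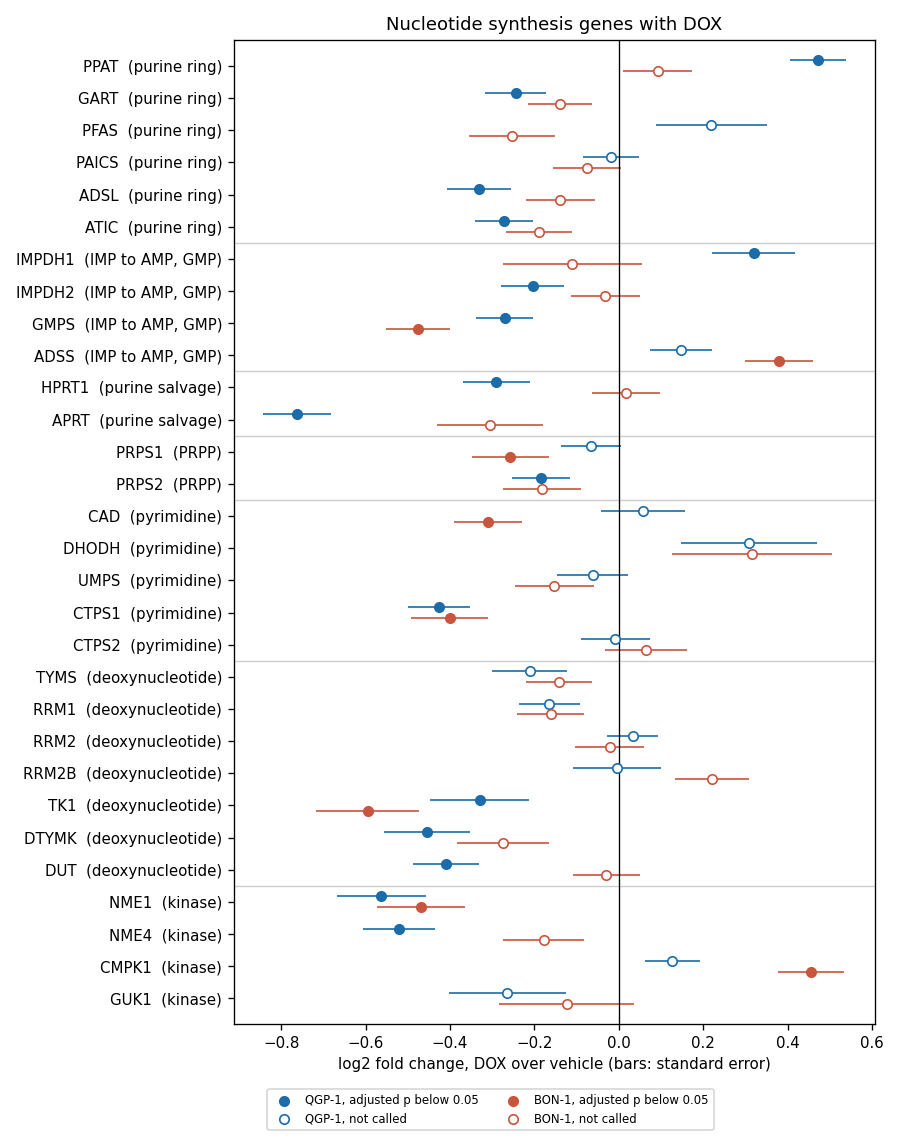
Log2 fold change of DOX over vehicle (x axis) for the 30 tested genes (y axis, by step) in QGP-1 (blue) and BON-1 (red), with standard errors as bars and filled points for genes called at an adjusted p below 0.05. GMPS, CTPS1, TK1 and NME1 have filled points below 0 in both lines, and the values span -0.76 to 0.47 in QGP-1 and -0.59 to 0.46 in BON-1.

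The sequence upstream of 5 genes is shown because 4 of them fell in both lines and the fifth, PPAT, rose in QGP-1. Each line gives the 250 bases before an annotated start site, 5′ to 3′ in the direction of the gene, from the RefSeq promoter table of GRCh38.p14. Capitals mark matches to 2 motifs on either strand, CACGTG (the E-box) and CCAAT. Where a gene has several starts, the window with most motif matches was picked, so it does not stand for all its starts.
PPAT, minus strand, chr4:56435616-56435865: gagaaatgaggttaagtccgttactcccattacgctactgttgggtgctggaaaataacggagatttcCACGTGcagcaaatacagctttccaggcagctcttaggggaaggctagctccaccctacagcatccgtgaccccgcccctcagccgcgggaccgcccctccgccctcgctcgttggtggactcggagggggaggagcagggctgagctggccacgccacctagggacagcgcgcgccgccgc
GMPS, plus strand, chr3:155870400-155870649: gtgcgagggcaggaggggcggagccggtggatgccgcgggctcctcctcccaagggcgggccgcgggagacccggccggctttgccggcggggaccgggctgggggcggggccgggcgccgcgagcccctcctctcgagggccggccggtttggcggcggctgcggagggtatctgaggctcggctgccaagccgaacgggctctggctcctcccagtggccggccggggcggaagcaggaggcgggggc
CTPS1, plus strand, chr1:40979446-40979695: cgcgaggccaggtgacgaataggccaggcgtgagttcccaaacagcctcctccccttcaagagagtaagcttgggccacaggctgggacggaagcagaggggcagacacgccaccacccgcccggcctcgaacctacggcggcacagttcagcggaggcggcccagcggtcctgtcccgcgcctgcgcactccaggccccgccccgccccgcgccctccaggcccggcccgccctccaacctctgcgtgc
TK1, minus strand, chr17:78187053-78187302: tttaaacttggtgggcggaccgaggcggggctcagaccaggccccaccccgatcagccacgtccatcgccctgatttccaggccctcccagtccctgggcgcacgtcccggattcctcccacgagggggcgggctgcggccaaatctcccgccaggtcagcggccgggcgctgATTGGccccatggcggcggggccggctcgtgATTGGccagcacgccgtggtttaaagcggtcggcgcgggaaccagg
NME1, plus strand, chr17:51153309-51153558: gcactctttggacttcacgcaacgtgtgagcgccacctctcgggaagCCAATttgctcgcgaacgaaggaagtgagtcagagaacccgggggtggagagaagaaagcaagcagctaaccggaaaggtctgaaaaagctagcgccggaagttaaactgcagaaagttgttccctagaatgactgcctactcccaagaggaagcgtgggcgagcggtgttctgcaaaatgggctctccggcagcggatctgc

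In the windows shown, PPAT held the E-box, and TK1 held CCAAT at 2 places (as ATTGG, its reverse complement) and NME1 at 1. Neither motif was found in those for GMPS and CTPS1. The window of the other TK1 start, at chr17:78187204, held neither motif. Of the 31 members, 28 had promoters in the table, with 44 start sites. An E-box stood in 6.82% of these windows (PPAT, ATIC and DHODH) beside 6.34% of all 35116, and CCAAT in 29.5% beside 32%, so neither share was far from that of all promoters. Letters of an E2F motif (TTTCCCGC, TTTCGCGC, TTTGCCGC or TTTGGCGC, either strand) stood in 4 windows, those of GART, PRPS2, TYMS and DUT, which is 9.09% beside 2.79% of all promoters. These matches describe letters in a window and not binding.

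In the purine ring pathway, QGP-1 cells moved in both directions while no gene was called in BON-1. PPAT, which commits PRPP to purines, lies at chr4:56393362-56435615 in GRCh38. It was at 139, 139 and 149 CPM in the vehicle libraries of QGP-1 and at 190, 205 and 198 with DOX. Each DOX library was above each vehicle library, a 1.39-fold increase (log2 fold change 0.47, SE 0.07, adjusted p = 0.000109). In BON-1 the gene was at 85, 75.2 and 85.1 CPM with vehicle and at 87.5, 83.5 and 90.4 with DOX, and the groups overlapped (0.09, adjusted p = 0.41). PAICS, which acts further along the chain, is transcribed away from PPAT from a start 137 bases off, so the PPAT window above runs across it. PAICS did not pass the test in either line, with log2 fold changes of -0.02 in QGP-1 and -0.08 in BON-1.

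Of the other ring enzymes, which act after PPAT, GART (log2 fold change -0.24), ADSL (-0.33) and ATIC (-0.27) fell in QGP-1. In BON-1 their values were -0.14, -0.14 and -0.19, and none passed the test. The call of GART was lost without QGP-1 DOX replicate 2 or 3. PFAS, which adds a nitrogen to the growing ring, had a value of 0.22 in QGP-1 and -0.25 in BON-1 and was called in neither. The log2 fold changes of the 6 ring enzymes ranged from -0.33 to 0.47 in QGP-1, with calls in both directions, and from -0.25 to 0.09 in BON-1, with none.

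At the branch to GMP, GMPS (chr3:155870650-155944020) fell in both lines. In QGP-1 it was at 114, 108 and 117 CPM with vehicle and at 93, 92.2 and 96 with DOX, and in BON-1 at 184, 165 and 174 against 128, 129 and 120. The DOX and vehicle libraries did not overlap in either line. The decrease was 17.1% in QGP-1 (log2 fold change -0.27, SE 0.07, adjusted p = 0.00644) and 28.1% in BON-1 (-0.48, SE 0.08, adjusted p = 1.54e-05). Each call held when any 1 library was left out.

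IMPDH1 and IMPDH2 are paralogs that both turn IMP into XMP, the substrate of GMPS, and they changed in opposite directions in QGP-1. IMPDH1 was at 21.3, 22.5 and 18.4 CPM with vehicle and at 25.6, 26.2 and 25.8 with DOX, each DOX library being higher (log2 fold change 0.32, SE 0.10, adjusted p = 0.0211). IMPDH2 had a log2 fold change of -0.20 (adjusted p = 0.047). Both calls were weak: that of IMPDH1 was lost without QGP-1 vehicle replicate 3, DOX replicate 2 or DOX replicate 3, and that of IMPDH2 held in 1 of 6 fits that left out a library, the one without vehicle replicate 3. In BON-1 IMPDH1 was at 11.1, 10.6 and 11.2 CPM with vehicle and at 9.88, 12.3 and 8.24 with DOX, which overlapped. IMPDH1 has 10 pseudogenes by name in the annotation, and 32.8% of the exonic bases of IMPDH2 are shared with another gene on the same strand, so reads of both genes could be split in counting.

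On the branch to AMP, ADSS, which joins IMP to aspartate and is named ADSS2 in the annotation, rose in BON-1. Its vehicle libraries were at 104, 94.1 and 96 CPM and its DOX libraries at 117, 136 and 130, without overlap (log2 fold change 0.38, SE 0.08, adjusted p = 0.000452). In QGP-1 it was at 68.9, 63.7 and 69.9 against 77.3, 73.8 and 73.2 CPM. Those libraries did not overlap either, but the change of 0.15 did not pass the test (adjusted p = 0.136). GMPS and ADSS, an enzyme on each of the 2 branches that start from IMP, thus moved in opposite directions in BON-1. IMPDH1 (-0.11) and IMPDH2 (-0.03), which use IMP itself on the GMP branch, were not called there. Nor was ADSL (-0.14), listed above with the ring enzymes, which also acts on the AMP branch after ADSS.

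Both purine salvage genes fell in QGP-1. APRT (chr16:88809339-88811937), which rebuilds AMP from adenine, had the most negative log2 fold change of the members in that line. It was at 70.5, 65.9 and 63.6 CPM with vehicle and at 37.7, 41.7 and 38.4 with DOX. The groups were far apart, a decrease of 41.1% (log2 fold change -0.76, SE 0.08, adjusted p = 1.14e-05). In BON-1 it was at 33.9, 28.6 and 31.2 against 27.9, 28.7 and 19.5 CPM, with DOX replicate 3 below the rest and an overlap between groups (-0.31, adjusted p = 0.0574). HPRT1, which salvages hypoxanthine and guanine, had a log2 fold change of -0.29 in QGP-1 (adjusted p = 0.0114) and of 0.02 in BON-1, where it did not pass.

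PRPS1 and PRPS2 make PRPP, which purine, pyrimidine and salvage routes share. PRPS2 was called lower in QGP-1 (log2 fold change -0.18, adjusted p = 0.0498), a call that was lost in each of the 6 fits that left out a library. Its value in BON-1 was the same, -0.18, and did not pass. PRPS1 was called lower in BON-1 (-0.26, adjusted p = 0.0281), a call that was lost without BON-1 vehicle replicate 2, vehicle replicate 3 or DOX replicate 2, and its value in QGP-1 was -0.07.

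Among the pyrimidine genes, CTPS1 (chr1:40979300-41012565) carried the change in QGP-1. It was at 109, 115 and 119 CPM with vehicle and at 90.9, 83 and 80.8 with DOX. BON-1 libraries were at 54.5, 51.5 and 55.7 CPM with vehicle against 40.9, 43.4 and 38.1. Neither line had an overlap, and the decrease was 25.6% in QGP-1 (log2 fold change -0.43, SE 0.07, adjusted p = 0.000532) and 24.3% in BON-1 (-0.40, SE 0.09, adjusted p = 0.000976). Its paralog CTPS2 had log2 fold changes of -0.01 and 0.06 and was called in neither line.

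CAD, the large enzyme of the opening steps of the pyrimidine pathway, fell in BON-1 by 19.4% (log2 fold change -0.31, adjusted p = 0.00323), and in QGP-1 its value was 0.06. UMPS, which makes UMP, had values of -0.06 and -0.15 and was not called. DHODH, the mitochondrial enzyme between them, was the scarcest tested member and had similar values of 0.31 in both lines, neither past the test. Its QGP-1 libraries were at 8.71, 7.33 and 6.05 CPM with vehicle and at 7.52, 10.1 and 9.74 with DOX. In BON-1 they were at 8.06, 6.87 and 5.06 against 7.7, 8.68 and 8.65. The groups overlapped in both lines.

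The deoxynucleotide genes did not move together. TK1 (chr17:78174091-78187233) was at 74.9, 73.4 and 51.6 CPM in QGP-1 vehicle libraries and at 51.9, 55.5 and 51.5 with DOX. Vehicle replicate 3 lay among the DOX libraries, and the call (log2 fold change -0.33, SE 0.12, adjusted p = 0.0413) held in 1 of 6 fits that left out a library, the one without that replicate. It was also lost with library size in place of TMM (adjusted p = 0.0583 by edgeR) and on centred TPM (0.135 and 0.0848 by limma, with 1 or 0.1 added). In BON-1 TK1 was at 29.1, 24.5 and 26.2 CPM with vehicle and at 19.4, 18.3 and 15.3 with DOX. Here the groups were apart, with a decrease of 33.8% (-0.59, SE 0.12, adjusted p = 0.000342), and the call held without any 1 library.

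DUT (chr15:48331011-48343373), which breaks down dUTP and so keeps uracil out of DNA, fell in QGP-1. It was at 164, 173 and 183 CPM with vehicle and at 145, 124 and 124 with DOX (log2 fold change -0.41, SE 0.08, adjusted p = 0.00108). BON-1 values of 113, 121 and 130 CPM with vehicle and 123, 112 and 122 with DOX overlapped (-0.03, adjusted p = 0.801). DTYMK, which phosphorylates dTMP, fell in QGP-1 (-0.45, adjusted p = 0.00327) and had a value of -0.27 in BON-1 (adjusted p = 0.0505). Of the exonic bases of DUT, 14.5% lie opposite DUT-AS1, and 8 pseudogenes carry its name.

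TYMS, which methylates dUMP to dTMP and is a drug target, had values of -0.21 (adjusted p = 0.0802) and -0.14 (adjusted p = 0.166) and was not called. Without QGP-1 DOX replicate 1, TYMS (-0.288) and RRM1 (-0.221) were called in that line. The strand setting of the counting is not given in the sources used here, and 47.9% of the exonic bases of TYMS lie opposite other genes, chiefly ENOSF1. The subunits of ribonucleotide reductase were not called in either line by edgeR with TMM. RRM2B passed in BON-1 with DESeq2 (0.231, adjusted p = 0.0496) and RRM1 there with library size (-0.205). RRM1, the large subunit, had values of -0.16 in both lines, RRM2, the small subunit of S phase, 0.03 and -0.02, and RRM2B, the small subunit that p53 induces, -0.00451 and 0.22 (adjusted p = 0.979 and 0.0526).

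The nucleoside diphosphate kinase NME1 (chr17:51153559-51162428) fell in both lines. In QGP-1 it was at 84.1, 102 and 109 CPM with vehicle and at 71.8, 57.2 and 70.8 with DOX, and in BON-1 at 44.2, 42.3 and 46.1 against 36.8, 31.3 and 27.8. All DOX libraries were below all vehicle libraries, with a decrease of 32.3% in QGP-1 (log2 fold change -0.56, SE 0.11, adjusted p = 0.000984) and 27.8% in BON-1 (-0.47, SE 0.10, adjusted p = 0.000769). The neighbouring paralog NME2 had almost no counts in these tables. Of the exonic bases of NME1 18.7%, and of those of NME2 24.2%, belong to the readthrough gene NME1-NME2 as well. How reads shared by these genes were counted is not given in the sources used here, so the NME1 value is uncertain to that extent and the level of NME2 cannot be read from these counts.

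NME4, the mitochondrial member of that family, fell in QGP-1. Its vehicle libraries were at 127, 127 and 112 CPM and its DOX libraries at 75.7, 92.6 and 86.5, without overlap (log2 fold change -0.52, SE 0.09, adjusted p = 0.000369). Values of 70.1, 61.4 and 69.5 against 66.4, 60.6 and 50.8 CPM in BON-1 did not pass (-0.18, adjusted p = 0.151). CMPK1 (chr1:47333790-47394866), which phosphorylates UMP and CMP, rose in BON-1, from 162, 145 and 159 CPM to 214, 197 and 227. Its increase was 37.1% (log2 fold change 0.46, SE 0.08, adjusted p = 3.77e-05). In QGP-1 it was at 179, 172 and 173 against 180, 195 and 196 CPM, and its value of 0.13 did not pass (adjusted p = 0.148). GUK1, the guanylate kinase, had values of -0.26 and -0.12 and was called in neither line.

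**Figure D2:**
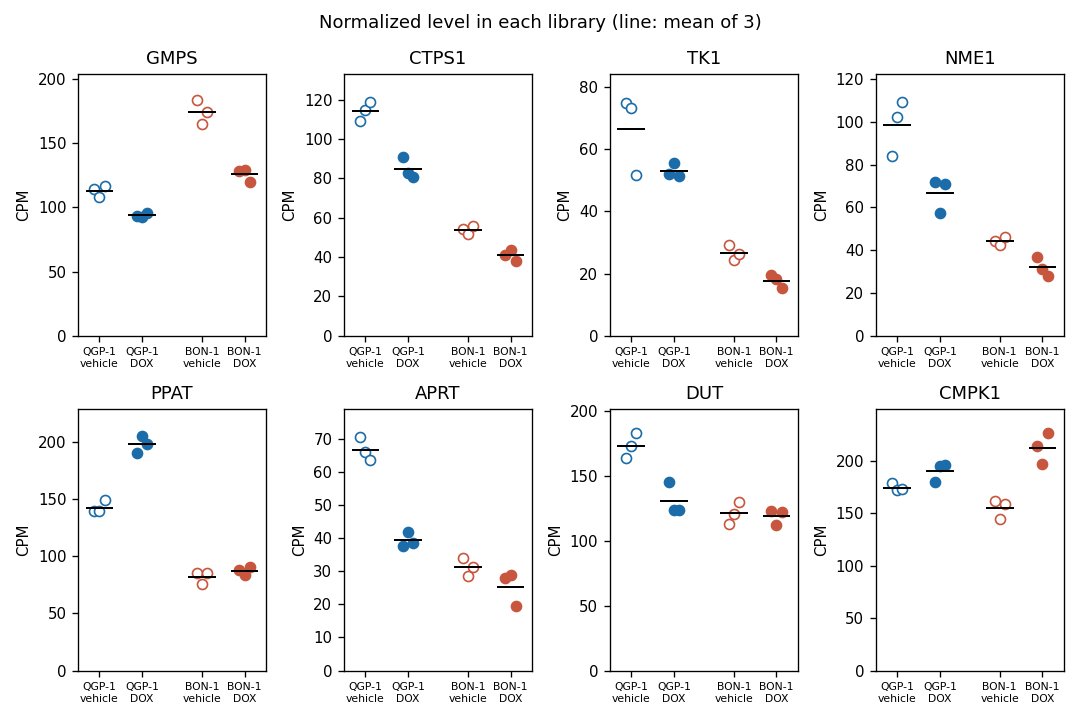
TMM-scaled level in CPM (y axis, from 0) of 8 genes in each library of QGP-1 (blue) and BON-1 (red) with vehicle (open) or DOX (filled), black bars marking the mean of 3. The upper row shows the 4 genes lower in both lines, where only the QGP-1 groups of TK1 overlap, and the lower row the 4 genes whose response differed between the lines. Levels were set within each line and are not compared across the lines here.

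By step, the purine genes, which are the largest group, held most of the QGP-1 calls. Of 12 purine genes, 7 were lower and 2 higher in QGP-1, with a median log2 fold change of -0.22, against 1 lower and 1 higher and a median of -0.12 in BON-1. Pyrimidine genes gave 1 lower and 0 higher of 5 in QGP-1, with a median of -0.01, and 2 lower and 0 higher in BON-1, with a median of -0.15. Deoxynucleotide genes gave 3 lower of 7 in QGP-1 (median -0.21) and 1 lower of 7 in BON-1 (median -0.14), with 0 higher in both. Of the 4 tested kinases, 2 were lower and 0 higher in QGP-1 (median -0.39), and 1 was lower and 1 higher in BON-1 (median -0.15, which was -0.0376 without BON-1 DOX replicate 3, -0.0598 without vehicle replicate 1 and -0.243 without DOX replicate 2). Of all genes tested, 17.7% were lower and 17.3% higher in QGP-1, and 18.3% and 17% in BON-1. These counts describe small groups of unequal size, and the difference between steps was not tested.

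The summed level of the 12 purine genes was 1620 to 1660 CPM with vehicle and 1490 to 1590 with DOX in QGP-1, without overlap. The BON-1 sums of 1410 to 1580 and 1380 to 1440 CPM overlapped. That of the 5 pyrimidine genes went from 255 to 258 CPM with vehicle to 223 to 236 with DOX in QGP-1, and from 274 to 293 to 226 to 252 in BON-1, without overlap in either line. The sum of the deoxynucleotide genes, most of which is RRM2, was 1460 to 1480 against 1370 to 1410 CPM in QGP-1 and 1670 to 1860 against 1700 to 1710 CPM in BON-1. Only the BON-1 groups overlapped in that sum.

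Genes of DNA replication and of mitosis were read in the same libraries. Of 10 replication genes (MCM helicase subunits, PCNA and loading factors), 6 were lower and 0 higher in QGP-1, with a median log2 fold change of -0.29, and 4 lower and 0 higher in BON-1, with a median of -0.21. The background for these counts is 17.7% of all genes lower and 17.3% higher in QGP-1, and 18.3% and 17% in BON-1. Their summed level was 1850 to 1880 CPM with vehicle and 1510 to 1570 with DOX in QGP-1, and 1400 to 1420 against 1220 to 1310 in BON-1. Of 10 mitosis genes, 1 was lower and 2 were higher in QGP-1, with a median of -0.0021, whereas 8 were lower and 0 higher in BON-1, with a median of -0.44. The part of these genes in the changes of the nucleotide genes was not tested.

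A single fit of the 12 libraries, with a term for line by DOX, tested whether a gene responded differently in the 2 lines. This interaction was called for 4 of 30 members, 13.3% beside 16.7% of 16598 genes. It was negative for 1 member and positive for 3, beside 7.92% and 8.8% of all genes. PPAT responded less in BON-1, with its BON-1 log2 fold change minus that of QGP-1 at -0.37 (SE 0.11, adjusted p = 0.0168). APRT (0.47, SE 0.16, adjusted p = 0.0452), DUT (0.39, SE 0.11, adjusted p = 0.0177) and CMPK1 (0.34, SE 0.11, adjusted p = 0.0284) had a more positive response in BON-1. Of 12 fits that left out a library each, the call held in 11 for PPAT, 9 for DUT, 6 for CMPK1 and 3 for APRT. For the other genes called in 1 line only, a difference between the lines was not detected, as for ADSS (0.24, SE 0.11, adjusted p = 0.147), CAD (-0.36, SE 0.13, adjusted p = 0.0646) and NME4 (0.35, SE 0.13, adjusted p = 0.076).

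Paralog balance was compared as the share of a pair's TPM, a level per gene length, held by the first gene, which does not depend on scaling between libraries. With 3 against 3 libraries the smallest two-sided exact permutation p is 0.1, so no share could pass 0.05. The CTPS1 share of CTPS1 and CTPS2 was 76.1% ± 1.85 (SD, n = 3) with vehicle and 70.4% ± 1.92 with DOX in QGP-1 (exact permutation p = 0.1). In BON-1 it was 68.3% ± 2.43 against 60.9% ± 1.98 (exact permutation p = 0.1). All DOX libraries were below all vehicle libraries in both lines, for the CTPS pair alone among the 4 pairs.

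The IMPDH1 share of IMPDH1 and IMPDH2 was 17%, ranging from 15.8% to 18.2%, in QGP-1 vehicle libraries and 22.8%, ranging from 22.4% to 23.3%, with DOX. In BON-1 it was 6.21% against 5.85%, with overlap. PRPS1 held 58.1% of the PRPS pair with vehicle and 60.1% with DOX in QGP-1, and 45.7% against 44.3% in BON-1. The RRM2B share of RRM2B and RRM2 was 2.85% against 2.79% in QGP-1 and 2.82% against 3.29% in BON-1. Of these, the IMPDH and PRPS pairs in QGP-1 and the RRM2 pair in BON-1 had no overlap, each with an exact permutation p of 0.1. Only the IMPDH groups were well apart. The PRPS1 share rounds to 59.1% in both vehicle replicate 3 and DOX replicate 3 of QGP-1. For RRM2B it rounds to 3.16% in both vehicle replicate 2 and DOX replicate 2 of BON-1.

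**Figure D3:**
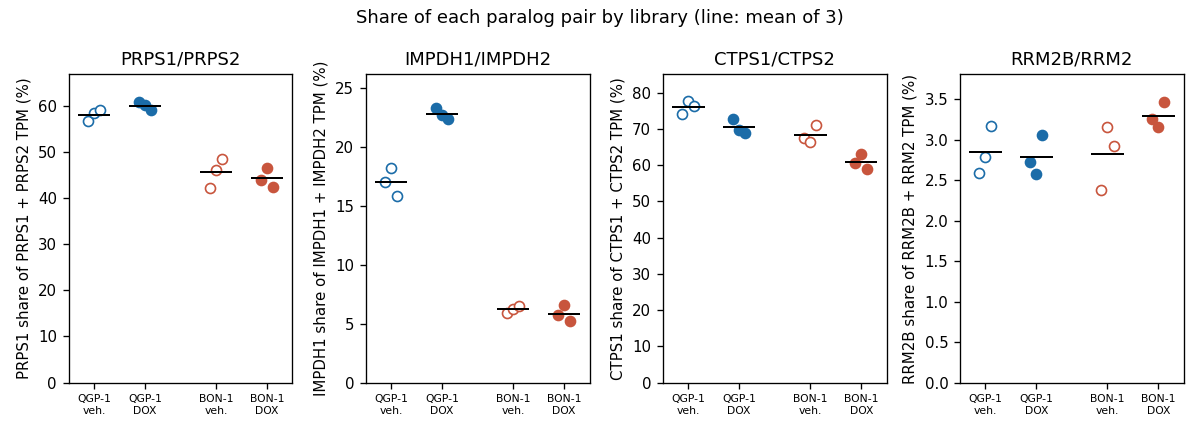
Share in percent (y axis, from 0) of the first-named gene in the summed TPM of each paralog pair, for each vehicle (open) and DOX (filled) library of QGP-1 (blue) and BON-1 (red), black bars marking the mean of 3. The CTPS1 share is lower with DOX in both lines, 70.4% against 76.1% and 60.9% against 68.3%, and the IMPDH1 share is higher with DOX in QGP-1, 22.8% against 17%.

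Without DOX, the lines differed in most of these genes. In vehicle libraries scaled together, 15 of 30 members were lower and 10 higher in BON-1 than in QGP-1, which is 83.3% called beside 74.9% of all genes (37.5% in each direction). TK1 was 2.64-fold higher in QGP-1, at 68.3 CPM beside 25.8 in BON-1, and PRPS1 2.36-fold, NME1 2.35-fold, APRT 2.25-fold, CTPS1 2.24-fold and HPRT1 2.17-fold. CAD was 2.61-fold higher in BON-1, at 136 CPM beside 52.3, followed by DTYMK at 1.71-fold, TYMS at 1.59-fold and IMPDH2 at 1.56-fold. Line, culture medium and the depth of the libraries cannot be told apart in this contrast. Within a line, per gene length, RRM2 was the most abundant member with vehicle (89.2 TPM ± 4.65 in QGP-1 and 336 TPM ± 45.6 in BON-1, SD, n = 3), above the next member without overlap. In QGP-1 HPRT1 (58.6 TPM) and PAICS (50.4 TPM) followed, and in BON-1 PAICS (97.2 TPM) and ATIC (94.5 TPM), which overlapped. UMPS and DHODH were near the bottom of the order in both lines, DHODH at 1.22 and 2.7 TPM.

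**Figure D4:**
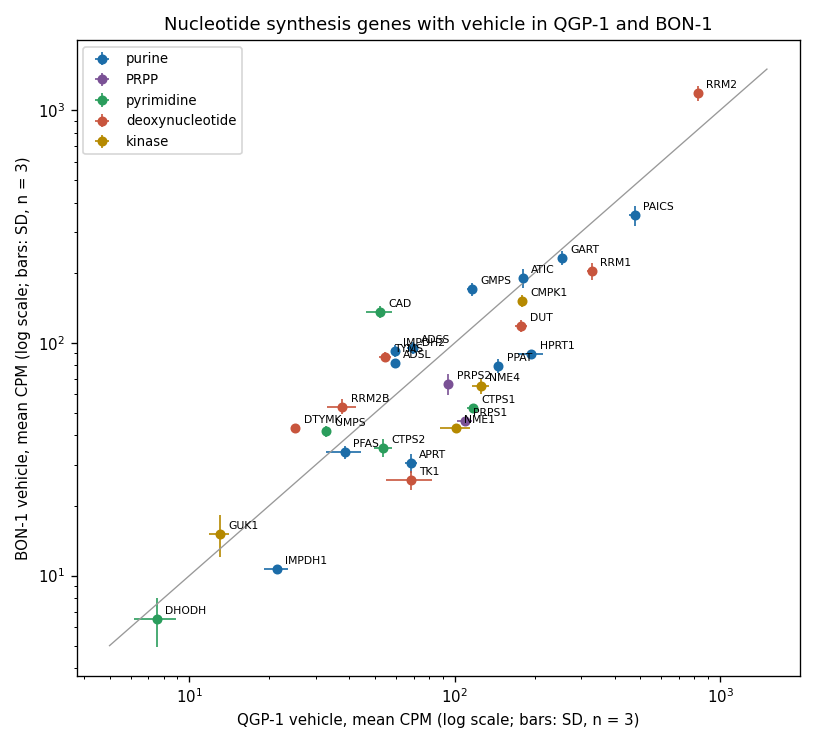
Mean vehicle level in CPM of each tested gene in QGP-1 (x axis, log scale) and BON-1 (y axis, log scale), with SD bars over 3 libraries, points colored by step and the line of equal level in grey. CAD lies above the line (136 CPM in BON-1, 52.3 in QGP-1), and TK1, PRPS1, NME1, CTPS1, APRT and HPRT1 lie below it.

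Other enzymes of nucleotide metabolism were followed in a list of 44 genes, such as nucleotidases, deaminases and adenylate kinases. In QGP-1, 11 of 43 tested were lower and 4 higher, with a median log2 fold change of -0.16, and in BON-1 8 of 41 were lower and 5 higher, with a median of 0.0056. Beside the 17.7% lower of all genes in QGP-1 and 18.3% in BON-1, the BON-1 count is close to the background. ADA, the adenosine deaminase, was lower in both lines (-1.40 and -0.75) at a low level, 1.75 and 4.7 CPM with vehicle. DCTD, the dCMP deaminase (-0.26 and -0.27), and ITPA, which clears inosine triphosphate (-0.42 and -0.52), were lower in both as well. NT5C3A, a pyrimidine nucleotidase, was higher in both (0.50 and 0.32). In QGP-1 the call of ADA was lost without vehicle replicate 2 or DOX replicate 3, that of DCTD without vehicle replicate 1, DOX replicate 2 or DOX replicate 3, and that of ITPA without DOX replicate 2. In BON-1 those of ADA and DCTD were lost without vehicle replicate 1, vehicle replicate 2 or DOX replicate 3.

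SAMHD1, which breaks down deoxynucleotide triphosphates, was called in opposite directions. It was at 34.1, 32.8 and 35.4 CPM with vehicle and at 49.8, 49.6 and 49.4 with DOX in QGP-1 (log2 fold change 0.54, adjusted p = 0.000137). In BON-1 it was at 64.4, 65.4 and 69.7 against 33.8, 37.4 and 40.8 CPM (-0.83, adjusted p = 5.63e-08). No libraries overlapped, and the difference of the responses was -1.36 (SE 0.12, adjusted p = 3.95e-08).

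The direction of these changes depends on scaling between libraries. On TPM as deposited the median of all genes itself shifted by 0.595 on the log2 scale in QGP-1 and by -0.313 in BON-1, and in QGP-1 0 members were then lower and 26 higher. The short noncoding RNAs RN7SK, RN7SL1 and RN7SL2 together held 78.8% to 80.3% of a library's TPM in QGP-1 with vehicle and 71.2% to 75.4% with DOX, and 50.9% to 65.6% against 53.4% to 74.3% in BON-1. Their part in this shift was not tested. With each library centred on its median, 11 members were lower and 3 higher. In BON-1 the count of lower members rose from 6 to 12 with library size in place of TMM, to 10 with other filters on low counts, and to 10 without BON-1 DOX replicate 1.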

How the data were processed

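Both kinds of table were made by the authors, who sequenced stranded mRNA libraries and aligned reads to GRCh38 with STAR (version, counting program and strand setting not given in the sources used here). Raw counts per gene were deposited without normalization, and TPM values were deposited as counts divided by a gene length and scaled so that each library sums to 1000000. The 31 members and the other lists were chosen with earlier results of these data known, and support nothing beyond description.

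Counts of each line (3 vehicle, 3 DOX libraries) were fitted by edgeR 4.0.16 (R 4.3.3) after filterByExpr and TMM, over 15089 genes in QGP-1 and 14625 in BON-1, with Benjamini-Hochberg adjustment over all genes tested. The SE is the log2 fold change divided by the square root of F. The interaction and the vehicle contrast came from 1 fit of 12 libraries over 16598 genes. No 2 replicates agreed within sampling noise (chi-square per gene 5.72 to 28.2). Depth makes counting error small for most tested members, and spread between libraries then sets the precision. Counting error is larger for scarce members such as DHODH, with 91 to 227 counts in BON-1 libraries.

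All members are named; values by library are given for members called in both lines, for those with an interaction call, and for the 3 most positive and 3 most negative changes of each line. The alternatives were DESeq2 1.42.0, library size, no filter, a block for the replicate number, 10 counts or more in all libraries, 1 fit of both lines, limma 3.58.1 on log2(TPM + 1) or log2(TPM + 0.1) where the mean TPM reached 1, the omission of each library, another assignment of shared genes to steps and, for paralog shares, raw counts. On counts simulated with 200 genes changed 2-fold, edgeR recovered 173 of them for QGP-1 (13 false calls among 186), 167 for BON-1 (2 among 169) and 155 for the interaction (6 among 161). The members changed by less than 2-fold, and in the data 2676 genes were called lower and 2610 higher in QGP-1. The simulation therefore does not give the power or the false calls for the members. Positions come from the GENCODE annotation of GRCh38.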

Additional observations from a re-analysis of the deposited data

Results flagged for a closer look

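The responses of 5 genes differed between the lines by the test of the interaction (BON-1 minus QGP-1, on the log2 scale, edgeR's quasi-likelihood test over all 12 libraries). The difference was -0.37 for PPAT, which rose in all 3 QGP-1 DOX libraries and overlapped in BON-1. It was 0.465 for APRT, 0.391 for DUT and 0.34 for CMPK1, and -1.36 for SAMHD1, whose libraries moved up in QGP-1 and down in BON-1. The call of PPAT was lost without QGP-1 DOX replicate 2. That of DUT was lost without QGP-1 DOX replicate 2, BON-1 vehicle replicate 1 or BON-1 DOX replicate 1. The call of APRT held only without QGP-1 vehicle replicate 3, QGP-1 DOX replicate 2 or BON-1 DOX replicate 3, 3 of 12 fits that left out a library, with differences of 0.318 to 0.608. That of CMPK1 was lost without QGP-1 vehicle replicate 1, QGP-1 DOX replicate 1, BON-1 vehicle replicate 2 or 3, or BON-1 DOX replicate 1 or 3, with differences of 0.245 to 0.36. Both were also lost with library size in place of TMM, and CMPK1 with no filter on low counts. SAMHD1 kept its call in all 12, at -1.45 to -1.31. Culture medium and depth differ between the lines, and their part in these differences cannot be told apart from that of the line.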

How the results depend on the processing

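With DESeq2, other scalings and filters, both lines in 1 fit and centred TPM, 576 of 620 values of single genes and differences kept their direction and their side of the threshold. Outside TPM as deposited, 30 values turned their sign, each of a gene not called. The calls lost in QGP-1 were those of IMPDH2 and PRPS2 with library size (adjusted p = 0.074 and 0.0763 by edgeR), no filter (0.099 and 0.106), 1 fit (0.0521 and 0.102) and centred log2(TPM + 1) (limma, 0.0705 and 0.0975), of TK1 with library size (0.0583) and either centred TPM (limma, 0.135 and 0.0848), and of HPRT1 with centred log2(TPM + 1) (0.055). The count of lower members in QGP-1 was 11 with library size, 12 with no filter and 12 with 1 fit. In BON-1, ADA was lost with 1 fit, and ADA and NT5C3A with centred log2(TPM + 1). DESeq2 gained RRM2B in BON-1 (0.231, adjusted p = 0.0496), for 3 higher members there, and centred log2(TPM + 1) gained UMPS (-0.195) and CMPK1 (0.176) in QGP-1.

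The replicate numbers did not pair the samples (correlations of same-numbered deviations -0.0207, 0.0465 and 0.0441 in QGP-1 and -0.0393, -0.0321 and 0.0667 in BON-1). With the replicate number as a block, 15 members were lower and 2 higher in QGP-1 and 8 and 2 in BON-1, RRM1 in QGP-1 (-0.167) and APRT (-0.314) and DTYMK (-0.286) in BON-1 were gained, RRM2B in QGP-1 was at 0.00015, the response of 6 members differed between the lines, and 2738 of all genes were lower and 2749 higher in QGP-1.

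On TPM as deposited, 89 genes were lower and 9149 higher in QGP-1, where centred TPM gave 3049 and 1857, and 335 and 34 in BON-1. There 0 members were lower and 26 higher in QGP-1 (medians 0.486 for purine, 0.612 for pyrimidine, 0.492 for deoxynucleotide and 0.299 for kinase genes), and 0 lower and 0 higher in BON-1 (limma; medians -0.46, -0.42, -0.495 and -0.487). In QGP-1 the values turned to 0.383 for ADSL, 0.454 for ATIC, 0.29 for CTPS1, 0.612 for CTPS2, 0.416 for DCTD, 0.252 for DTYMK, 0.316 for DUT, 0.467 for GART, 0.448 for GMPS, 0.391 for GUK1, 0.446 for HPRT1, 0.506 for IMPDH2, 0.228 for ITPA, 0.173 for NME1, 0.207 for NME4, 0.709 for PAICS, 0.649 for PRPS1, 0.525 for PRPS2, 0.558 for RRM1, 0.571 for RRM2B, 0.406 for TK1, 0.492 for TYMS and 0.461 for UMPS. In BON-1 they turned to -0.248 for CTPS2, -0.00186 for DHODH, -0.344 for HPRT1, -0.0493 for NT5C3A, -0.255 for PPAT and -0.127 for RRM2B. The median of all genes moves with this scaling, by its construction.

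Library size gave 12 lower members in BON-1, with GART, PFAS, ATIC, APRT, RRM1 (-0.205) and DTYMK gained, a deoxynucleotide median of -0.187 there, and turned CTPS2 (0.00797) and RRM2B (0.0123) in QGP-1 and HPRT1 (-0.0287) in BON-1. It called 3149 genes lower and 2030 higher in BON-1, beside 2677 and 2488. No filter gave 10 lower members in BON-1, a kinase median of -0.257 in QGP-1, RRM2B at 0.00104 in QGP-1 and HPRT1 at -0.00199 in BON-1. A minimum of 10 counts also gave 10, and PFAS, ATIC, APRT and DTYMK were gained under both. DESeq2 moved the QGP-1 kinase median to -0.262, and the other assignment of steps moved it to -0.542 and the BON-1 pyrimidine median to -0.044. Centred log2(TPM + 1) gave medians of -0.17 for purine genes in QGP-1 and -0.0979 for pyrimidine genes in BON-1, CAD at -0.0397 and PAICS at 0.0536 in QGP-1 and HPRT1 at -0.0217 in BON-1. The cause was not tested for these.

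Leaving out each library gave 10 to 13 lower and 1 to 3 higher members in QGP-1 and 6 to 10 lower in BON-1, and 1 to 5 members with a different response. Medians ranged in QGP-1 from -0.231 to -0.211 (purine), -0.0522 to 0.033 (pyrimidine), -0.288 to -0.154 (deoxynucleotide) and -0.459 to -0.278 (kinase), and in BON-1 from -0.169 to -0.0955, -0.205 to -0.135, -0.169 to -0.106 and -0.243 to -0.0376. The change of share ranged from -2.99 to 0.108 points for PRPS1 in BON-1 and from -0.198 to 0.0984 for RRM2B in QGP-1. Log2 fold changes ranged across 0 in QGP-1 for CAD (-0.0342 to 0.116), CTPS2 (-0.0697 to 0.033), PAICS (-0.0446 to 0.0193) and RRM2B (-0.0871 to 0.0955). In BON-1 they did so for CTPS2 (-0.00734 to 0.097), DUT (-0.0828 to 0.0115), GUK1 (-0.28 to 0.0247), HPRT1 (-0.0578 to 0.0485), IMPDH1 (-0.287 to 0.00631), IMPDH2 (-0.0959 to 0.0123) and RRM2 (-0.0736 to 0.031).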

Other observations

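MTAP, which returns adenine from methylthioadenosine to the purine pool and so feeds APRT, belongs to the list of other enzymes of nucleotide metabolism. It was at 55.5, 54.9 and 55.2 CPM in QGP-1 vehicle libraries and at 62.4, 70.2 and 63.6 with DOX (log2 fold change 0.24, adjusted p = 0.0227). It had 0 counts in each of the 6 BON-1 libraries. With 3 counts over the 67849404 counts of the BON-1 vehicle group as the limit, which is 0.0442 CPM, the QGP-1 vehicle level was at least 1250-fold higher, counting error only. Neighbouring genes were looked up after this value was seen. CDKN2A, CDKN2B, DMRTA1 and KLHL9 also had 0 counts in all 6 BON-1 libraries, while in QGP-1 vehicle libraries CDKN2A had 2722, 3447 and 4137 counts and KLHL9 6734, 7056 and 9170. MLLT3, which lies farther off on the same chromosome, had 1518 to 2506 counts in BON-1 vehicle libraries. APRT, the step after MTAP, was 2.25-fold lower in BON-1 than in QGP-1 with vehicle (30.4 beside 68.4 CPM). In that contrast 15 of 30 members were lower in BON-1 and 10 higher, beside 37.5% of all genes in each direction. TK1 (2.64-fold), PRPS1 (2.36-fold) and NME1 (2.35-fold) were lower in BON-1 by more than APRT. A link between MTAP and APRT was not tested.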
